A study of Arabidopsis thaliana with 12 samples.

Results

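Nuclear genes for 5 chloroplast proteins were compared here between the Arabidopsis thaliana wild type and the toc90 mutant. They were AT1G76450 (a lumen protein with a PsbP domain), AT1G22700 (photosystem I assembly), PIFI, NdhS and PAC. The 5 were chosen by name from 691 genes that had a probe annotated to 1 gene only, with earlier results of these data known. Had a gene had several such probes, the probe would have been selected by the highest mean over the 12 readings, but each of the 5 had 1 single-gene probe and 0 probes shared with other genes. The samples were 6 readings of total RNA from the wild type (WT) and 6 from toc90, both in ecotype Columbia 0 and each numbered 1 to 6 in the titles. Per the labels, toc90 is impaired in moving proteins through the outer membrane of the chloroplast. The sources used here give neither the tissue, age and growth conditions nor the nature of the toc90 allele, and do not say whether readings came from separate plants, so p-values measure the spread between these readings, which may be technical.

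Chloroplasts make few of their own proteins and import most from the cytosol through the TOC and TIC translocons, of which TOC90 is a receptor-like component related to TOC159. Inside, the thylakoid membrane carries the photosystems, whose assembly needs helper proteins that are not part of the finished complex. The chloroplast NADH dehydrogenase-like (NDH) complex associates with photosystem I and returns electrons to the plastoquinone pool. All 5 genes encode proteins that have to be imported.

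The values were intensities on a scale from 0 to 100 of 3439 probes per reading. With 6 readings per genotype, differences between the groups are known with limited precision. The readings differed between the genotypes over the whole table. Between 13.5% and 17.3% of probes were listed at 0 in the WT readings and between 20.3% and 33.4% in the toc90 readings, and the median value was 0.151 to 0.157 in WT and 0.0593 to 0.0687 in toc90. Mean values overlapped, at 0.768 to 1.03 in WT and 0.736 to 1.06 in toc90. No probe was annotated to TOC90, whose level was therefore not analysed here and gave no check of the labels. Of 10 leaf markers, 4 had a single-gene probe (PRK, PSBW, PSAN and CHLM) and none of these was listed at 0 in any reading. The same held for 1474 of all 3439 probes. None of the 18 root, flower and seed markers had a single-gene probe, so the tissue could not be checked. Differences were tested on quantile-normalised log2 values with limma over all probes with at least 3 values above 0 in each group, and a probe was called at a Benjamini-Hochberg adjusted p under 0.05. Of 2687 probes tested, 17.0% were called lower in toc90 and 6.92% higher. Higher calls made up 28.9% of the calls, but 56.0% with median scaling, 51.0% with cyclic loess and 8.66% with the values as deposited. The median log2 difference of all tested probes was -0.21, and differences are also given relative to it.

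Against this background, 1 of the 5 genes was lower in toc90, AT1G76450, and 1 was higher, PAC, whose call did not hold with neighbouring readings averaged (limma adjusted p = 0.171). On the normalised scale AT1G76450 was 23.1-fold lower and PAC 1.69-fold higher. The other 3 did not pass the test. AT1G22700 and PIFI lay above WT in the fit, and NdhS lay below it but above it with median scaling.

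**Figure D1:**
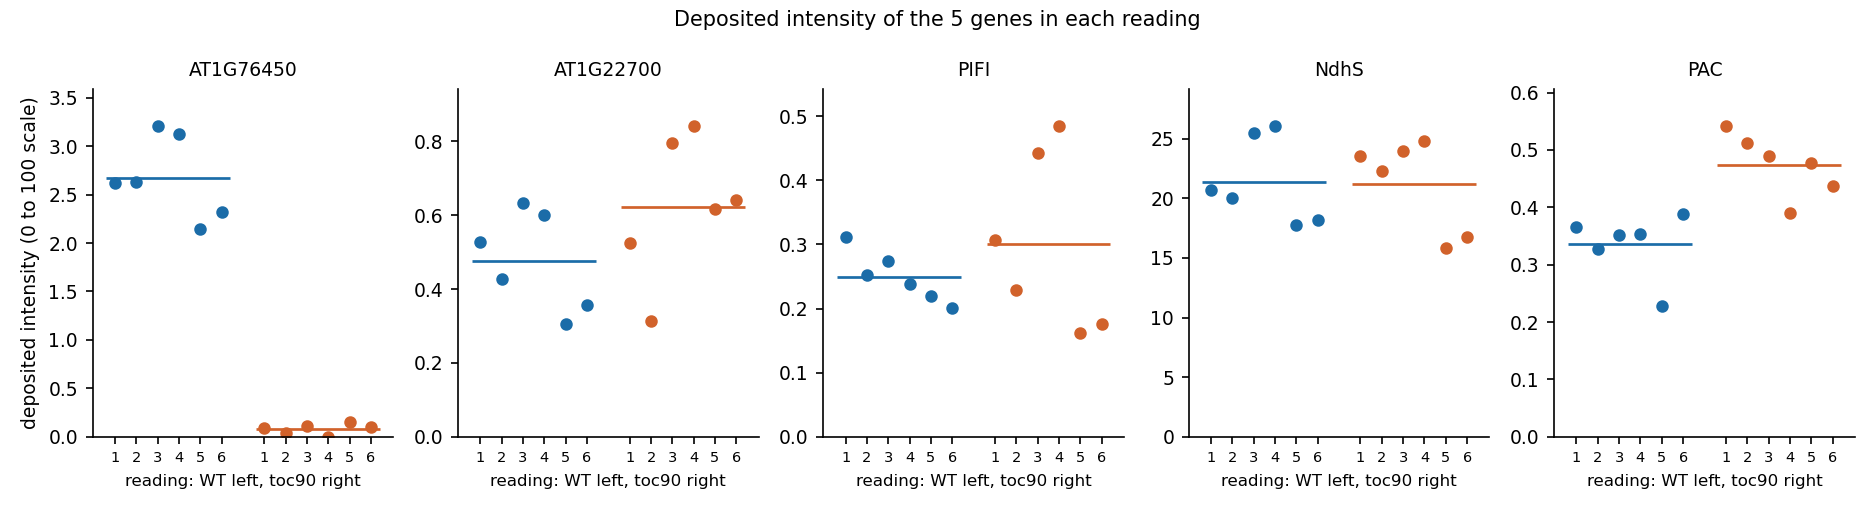
Deposited intensity (vertical axis, from 0, a separate scale for each gene) of the 5 genes in each reading, with WT in blue, toc90 in orange and group means as lines. AT1G76450 lies between 2.15 and 3.20 in WT and at most at 0.157 in toc90, PAC is above every WT reading in all 6 toc90 readings, and the other 3 genes overlap.

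AT1G76450 encodes a relative of the PsbP subunit of the oxygen-evolving complex that lies in the thylakoid lumen. In WT its lowest, median and highest deposited values were 2.15, 2.63 and 3.20. In toc90 they were 0, 0.0965 and 0.157. The highest toc90 reading was thus far below the lowest WT reading, and toc90 reading 4 was listed at 0. The group means were 2.67 ± 0.421 in WT and 0.0839 ± 0.0548 in toc90 (n = 6 each, ± SD, the 0 included), so the WT mean was 31.9 times that of toc90. The fitted log2 difference, without the reading at 0, was -4.53 ± 0.26 (SE, limma adjusted p = 2.05e-06), a fold of 23.1 on the normalised scale, or -4.32 relative to the median of all probes. Fewer cells of a type that carry the transcript and less of it per cell cannot be told apart in such samples. With neighbouring readings averaged (1 and 2, 3 and 4, 5 and 6), the limma adjusted p was 0.00796. With the missing reading put at the lowest positive value of the table, 1.23e-06, the difference was -7.30 and was not called (limma adjusted p = 0.106). Its SE was then 2.69, against 0.26 without that reading. With an offset before log2 the difference was -3.94.

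The 2 groups of AT1G76450 also differed in how their readings spread relative to the mean. The coefficient of variation was 15.7% in WT and 65.3% in toc90, where 1 reading was at 0 and the highest was 0.157. The SD itself was smaller in toc90, at 0.0548 against 0.421 in WT, so the larger coefficient goes with the low toc90 mean. In WT the readings came in neighbouring pairs, with means of 2.63 for readings 1 and 2, 3.16 for 3 and 4 and 2.23 for 5 and 6. Within those pairs the higher reading was 1.01, 1.03 and 1.08 times the lower. After quantile normalisation the WT range narrowed to 2.61 to 3.14, a coefficient of variation of 7.29%. Among all probes of the same reading, AT1G76450 stood at percentiles 95.4 to 95.9 in WT and 16.7 to 67.7 in toc90, so its place in the distribution changed as well as its value.

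PAC, or PALE CRESS, is needed for chloroplast development and plastid RNA maturation, and mutants are pale. Its lowest, median and highest deposited values were 0.228, 0.353 and 0.388 in WT. In toc90 they were 0.390, 0.483 and 0.541. All 6 toc90 readings were above every WT reading, although toc90 reading 4 at 0.390 and WT reading 6 at 0.388 were nearly equal. The group means were 0.336 ± 0.0563 in WT and 0.475 ± 0.0542 in toc90 (n = 6 each, ± SD), a ratio of 1.41. The fitted log2 difference was 0.76 ± 0.21 (SE, limma adjusted p = 0.0244), a fold of 1.69, or 0.96 relative to the median of all probes. On the normalised scale 5 of 6 toc90 readings were above every WT reading.

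By neighbouring pairs PAC was also higher in toc90, which had to follow because its deposited groups did not overlap. The labels do not pair WT with toc90 readings. Readings 1 and 2 averaged 0.347 in WT and 0.527 in toc90. Readings 3 and 4 averaged 0.353 and 0.440, and readings 5 and 6 averaged 0.308 and 0.457. The WT mean of the last pair rests on 2 unlike readings, the higher being 1.70 times the lower. The call did not hold with neighbouring readings averaged (limma adjusted p = 0.171) or as a random block (0.129), and without WT reading 5, the lowest, the difference was 0.65 (limma adjusted p = 0.0512).

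AT1G76450 and PAC were also the 2 of the 5 genes whose groups did not overlap in the deposited values. Every toc90 reading lay below every WT reading for 19.9% of all 3439 probes, the side of AT1G76450. Every toc90 reading lay above every WT reading for 1.40% of them, the side of PAC. With percentiles within each reading in place of the values, the same 2 genes did not overlap, and the shares of all probes were 6.25% on the lower side and 12.7% on the higher side. The share on the side of PAC was therefore low on one scale and larger on the other.

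**Figure D2:**
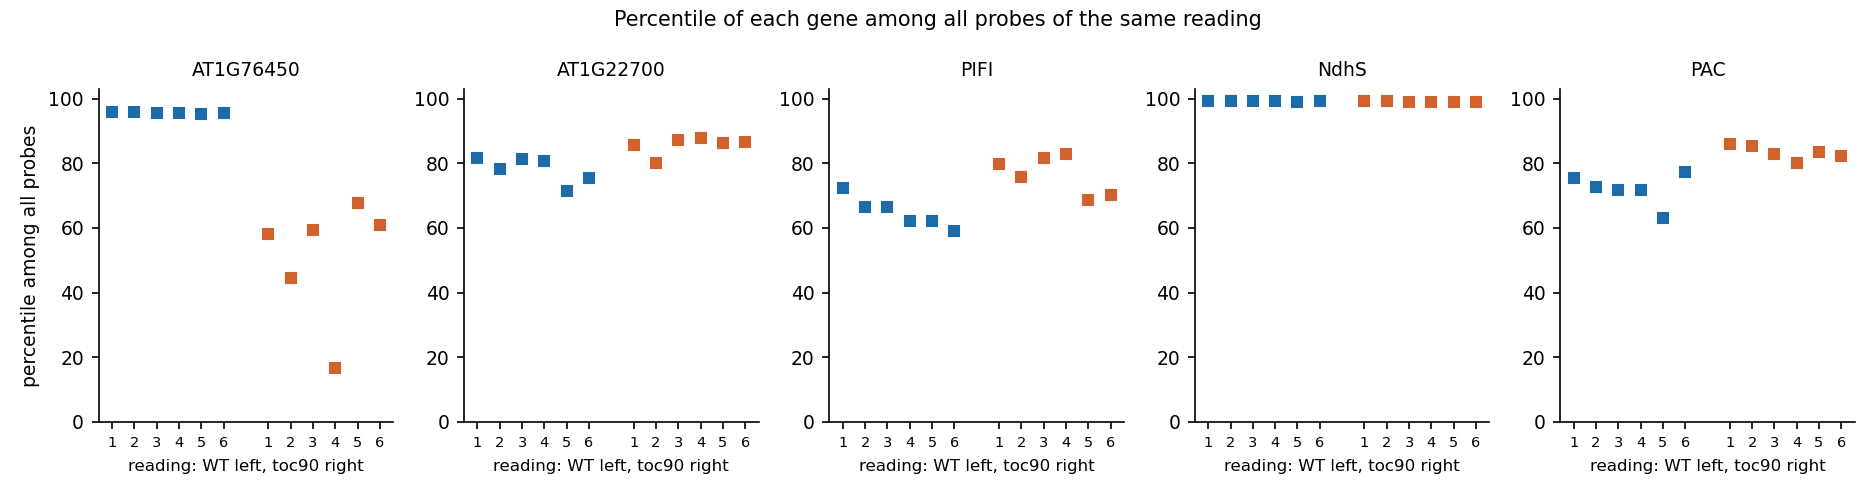
Percentile of each gene among all probes of the same reading (vertical axis, 0 to 100), with WT in blue and toc90 in orange. AT1G76450 drops from above 95 to between 16.7 and 67.7, PAC moves from 63.2 to 77.2 up to 80.2 to 86.1, and NdhS is above 99 in all 12 readings. Percentiles compare readings of 1 gene, not the abundance of different genes.

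AT1G22700 encodes a tetratricopeptide repeat protein of the thylakoid that is needed for photosystem I to accumulate. Its lowest, median and highest deposited values were 0.305, 0.477 and 0.632 in WT. In toc90 they were 0.312, 0.629 and 0.841. Readings 3 and 4 of toc90, and by a smaller margin reading 6, were above every WT reading, and the others lay within the WT range. The group means were 0.475 ± 0.133 in WT and 0.621 ± 0.192 in toc90 (n = 6 each, ± SD). The log2 difference was 0.53 ± 0.21 (SE) and did not pass (limma adjusted p = 0.0862), at 0.74 relative to the median of all probes. On the normalised scale 5 of 6 toc90 readings were above every WT reading, and reading 2 of toc90 was the exception. Without toc90 reading 2 the difference was 0.66 and was called (limma adjusted p = 0.0248). Leaving out any 1 of the other 11 readings left it uncalled. It was also called with median scaling (1.07, limma adjusted p = 0.00709) and with 4 other settings. It was not called with the values as deposited (0.37, limma adjusted p = 0.315). Nor was it with neighbouring readings averaged (limma adjusted p = 0.340) or taken as a random block (0.234).

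The neighbouring pairs of AT1G22700 did not all point the same way in the deposited values. Readings 1 and 2 averaged 0.477 in WT and 0.418 in toc90, whereas readings 3 and 4 averaged 0.616 and 0.818. Readings 5 and 6 averaged 0.331 and 0.629, which was the widest gap of the 3. On the normalised scale all 3 pairs of AT1G22700 were higher in toc90, with readings 1 and 2 close together at 0.480 in WT and 0.502 in toc90. The percentile within the reading was 71.4 to 81.8 in WT and 80.1 to 88.0 in toc90.

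PIFI is named for the post-illumination chlorophyll fluorescence increase, a sign of NDH activity, and encodes a stromal protein that this electron path needs although it is not a subunit of the complex. Its lowest, median and highest deposited values were 0.200, 0.245 and 0.312 in WT. In toc90 they were 0.162, 0.267 and 0.484. Readings 3 and 4 of toc90 lay above every WT reading and readings 5 and 6 below every WT reading, so the toc90 group covered the WT range on both sides. The means were 0.250 ± 0.0400 in WT and 0.300 ± 0.137 in toc90 (n = 6 each, ± SD), and the coefficient of variation was 16.0% and 45.6%. The log2 difference of PIFI was 0.59 ± 0.22 (SE) and did not pass (limma adjusted p = 0.0655), at 0.80 relative to the median of all probes.

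By neighbouring pairs, PIFI averaged 0.282 in WT and 0.267 in toc90 for readings 1 and 2. Readings 3 and 4 averaged 0.256 and 0.463, and readings 5 and 6 averaged 0.210 and 0.169. One pair of 3 was thus higher in toc90 in the deposited values. On the normalised scale all 3 pairs of PIFI were higher in toc90, the last at 0.178 in WT and 0.229 in toc90. There 3 of 6 toc90 readings were above every WT reading and 0 below. PIFI was called with median scaling (0.85, limma adjusted p = 0.0104), an offset before log2 (0.72, 0.0227), probes without zeros only (0.79, 0.0283) and quantile normalisation within the place of the probe number (0.97, 0.00586), and also with percentile ranks (limma adjusted p = 0.0190). Leaving out WT reading 1 (0.71, limma adjusted p = 0.0428), toc90 reading 5 (0.68, 0.0336) or toc90 reading 6 (0.65, 0.0493) also brought the call. Leaving out any 1 of the other 9 readings did not. PIFI was also not called with the values as deposited (0.15, limma adjusted p = 0.702). The same held with neighbouring readings averaged (limma adjusted p = 0.315) or taken as a random block (0.168).

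NdhS, also known as CRR31, is the subunit of the NDH complex at which ferredoxin, its electron donor, docks. Its lowest, median and highest deposited values were 17.7, 20.3 and 26.0 in WT. In toc90 they were 15.8, 22.9 and 24.8. The groups overlapped, with readings 5 and 6 lowest in both genotypes. The means were 21.3 ± 3.59 in WT and 21.2 ± 3.89 in toc90 (n = 6 each, ± SD), a ratio of 0.993. The log2 difference of NdhS was -0.39 ± 0.17 (SE) and did not pass (limma adjusted p = 0.116), at -0.18 relative to the median of all probes.

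The sign of the NdhS difference depended on the scaling, which moved it from -0.39 to 0.68 with median scaling, where it was called higher (limma adjusted p = 0.00691). With the values as deposited it was -0.02 (limma adjusted p = 0.956) and with cyclic loess -0.11 (0.575). Quantile normalisation lowered readings 3 and 4 of toc90 in particular, from deposited values of 23.9 and 24.8 to 13.7 and 13.9. It raised readings 5 and 6 of toc90, from 15.8 and 16.8 to 18.0 and 19.7. The coefficient of variation of NdhS on the normalised scale was 5.96% in WT and 21.9% in toc90, and 4 of 6 toc90 readings were below every WT reading there. Its percentile among all probes was 99.1 to 99.2 in WT and 99.0 to 99.3 in toc90.

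**Figure D3:**
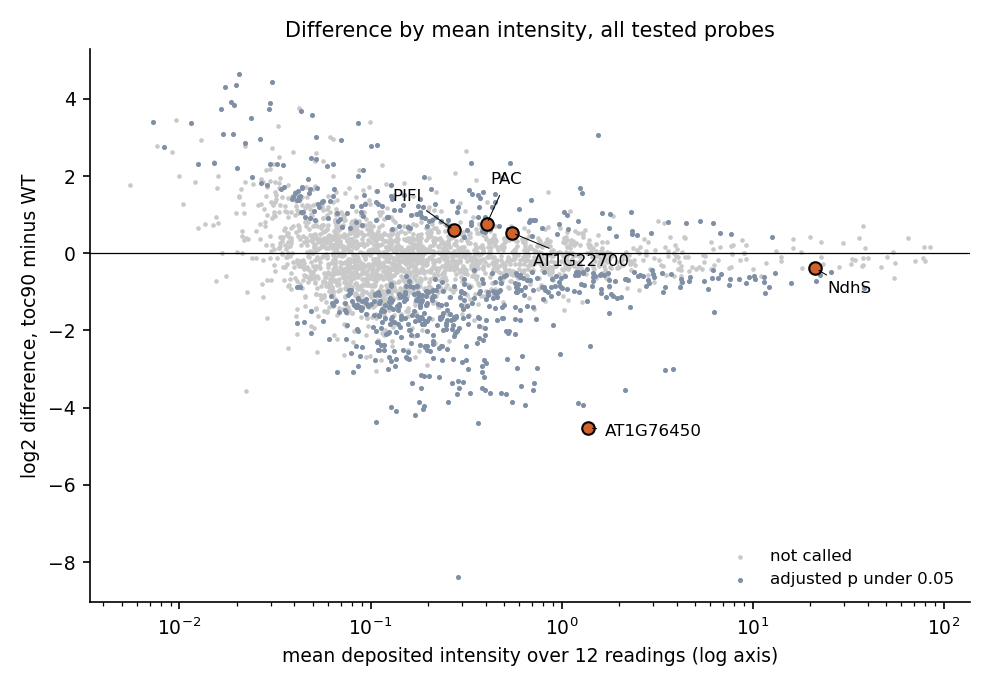
Log2 difference of toc90 minus WT (vertical axis) against mean deposited intensity over the 12 readings (log axis) for the 2687 tested probes. Called probes are in blue grey, others in light grey and the 5 genes in orange. AT1G76450 at -4.53 lies below the central 90% of probes of like intensity, while the other 4 lie between -0.39 and 0.76.

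The differences were also read against probes of like mean intensity, with the tested probes put into 4 classes of like size. AT1G76450, AT1G22700 and NdhS were in the brightest class, of 672 probes, where 24.9% were called lower and 5.95% higher and the central 90% of differences ran from -1.45 to 0.68. AT1G76450 at -4.53 lay outside that range, and AT1G22700 at 0.53 and NdhS at -0.39 inside it. PIFI and PAC were in the next class, of 671 probes, where 23.5% were called lower and 6.26% higher and the central 90% ran from -2.70 to 0.99. Both lay inside that range, at 0.59 and 0.76.

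**Figure D4:**
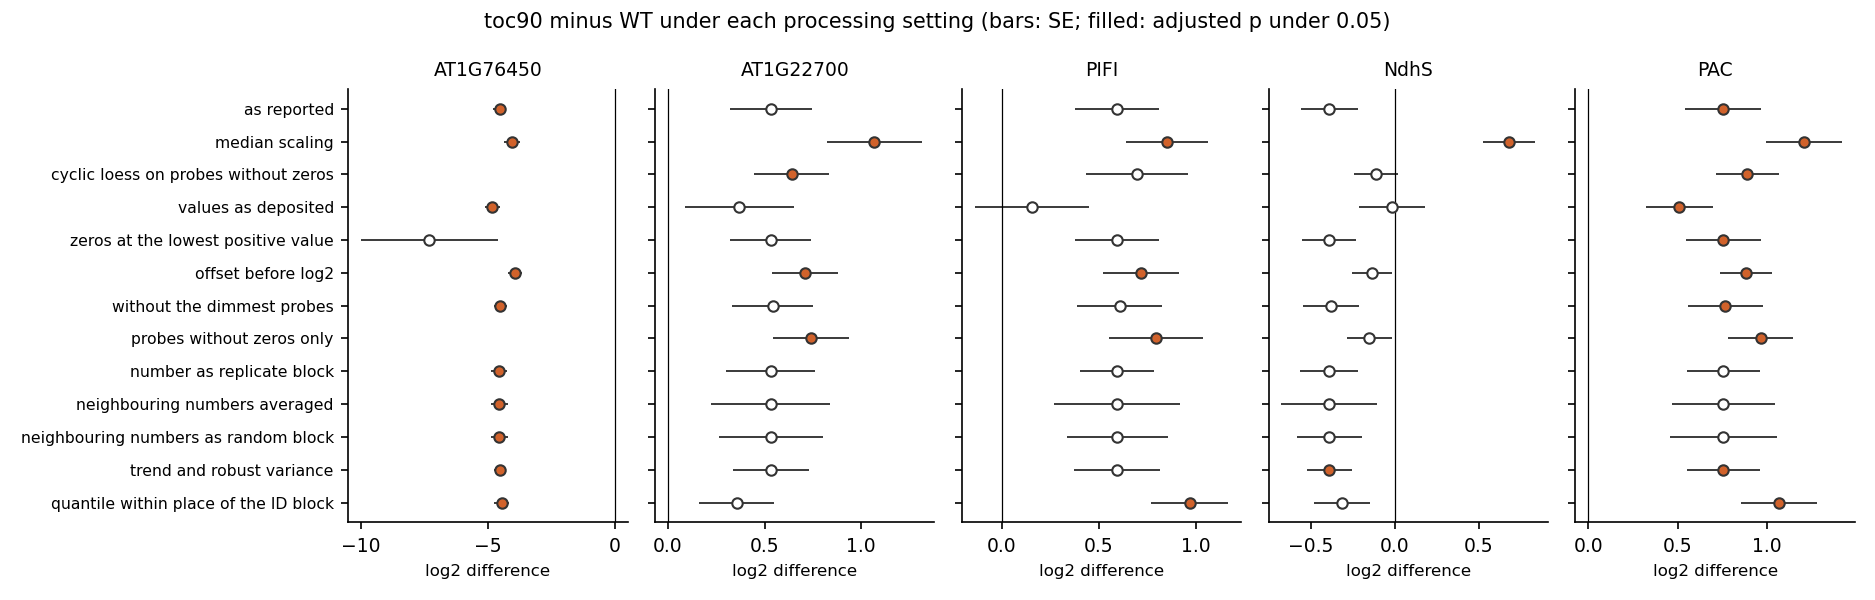
Log2 difference of toc90 minus WT (horizontal axis, a separate scale for each gene, bars give the SE) under the reported and 12 other settings, with filled points for an adjusted p under 0.05. AT1G76450 has no point for the 2 settings limited to probes without zeros. Its points are all below 0, those of AT1G22700, PIFI and PAC all above 0, and NdhS is above 0 with median scaling alone.

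Of the 2 NDH genes, PIFI was above WT and NdhS below it in the fit, each short of the threshold, while both were above WT and called with median scaling. The difference between them was not tested. The third NDH gene with a single-gene probe was NdhN, a subunit of the stromal arm of the complex. It was listed at 0 in 3 of 6 WT and 3 of 6 toc90 readings. Its values ran from 0 to 0.0211 in WT and from 0 to 0.0809 in toc90. Fitted without the readings at 0, it did not pass (1.84 ± 0.85, SE, limma adjusted p = 0.178). Of 26 listed NDH subunits and accessory factors, 3 were tested and 0 were called in either direction, beside 17.0% of all probes lower and 6.92% higher. Their log2 differences ran from -0.39 to 1.84, and the median of the 3 was PIFI's own 0.59, against -0.21 for all probes.

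Of 25 listed lumen proteins, 2 were tested, AT1G76450 and PSAN, a photosystem I subunit on the lumen side. AT1G76450 was the 1 called lower and 0 were higher, beside 17.0% and 6.92% of all probes. The median of these 2 log2 differences was -2.18, against -0.21 for all probes. That median is the midpoint of -4.53 for AT1G76450 and 0.18 for PSAN, so it describes neither gene. PSAN went from 6.31 ± 0.945 in WT to 9.06 ± 2.24 in toc90 (mean ± SD of 6 deposited values each), and the fitted difference of 0.18 ± 0.17 in log2 (SE) did not pass (limma adjusted p = 0.463). Its deposited range was 5.04 to 7.37 in WT and 6.56 to 12.8 in toc90, so the groups overlapped. With median scaling PSAN was called higher (1.20, limma adjusted p = 0.00018).

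Of 30 listed photosystem and thylakoid assembly factors, 3 were tested, with 1 lower and 0 higher, beside 17.0% and 6.92% of all probes. The median of the 3 log2 differences was 0.03, against -0.21 for all probes. The lower one was FZL, a dynamin-like protein that shapes thylakoids. FZL went from 0.0728 ± 0.0136 in WT to 0.0132 ± 0.0115 in toc90 (deposited values ± SD, n = 6 each), with 2 of 6 toc90 readings listed at 0. Its log2 difference, fitted without the 2 toc90 readings at 0, was -0.87 ± 0.26 (SE, limma adjusted p = 0.0380). The deposited groups did not overlap, at 0.0575 to 0.0946 in WT and 0 to 0.0296 in toc90, which held on that side for 19.9% of all probes. The mean percentile of FZL within the readings was 30.7 in WT and 27.4 in toc90. PSB27, a lumen protein that acts in photosystem II assembly and repair, did not pass (0.03 ± 0.28, SE, limma adjusted p = 0.941). AT1G22700, the photosystem I factor, lay between PAC and PSB27 and did not pass. Of 18 listed plastid RNA and development factors PAC was the 1 tested.

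**Figure D5:**
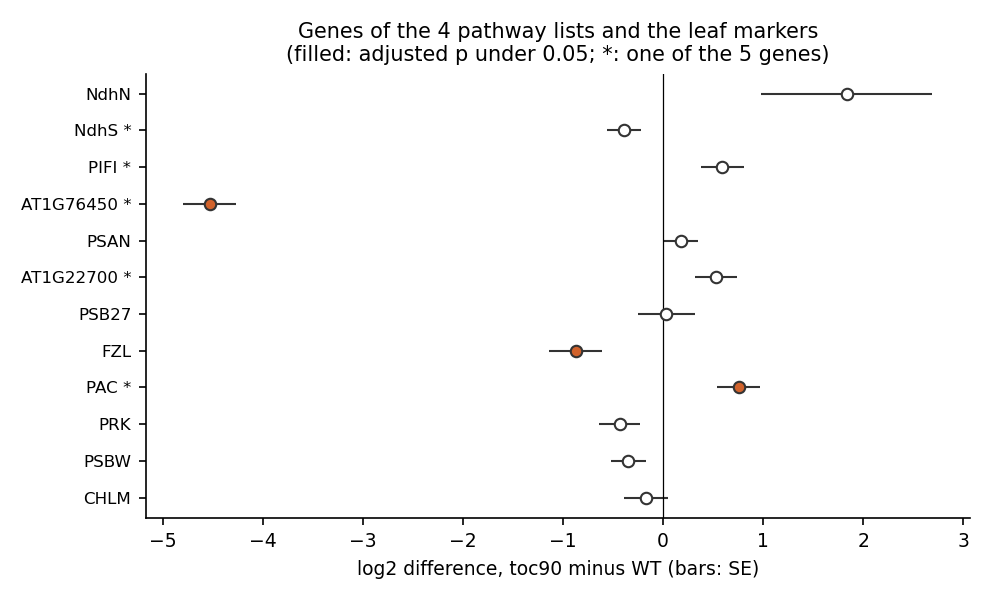
Log2 difference of toc90 minus WT (horizontal axis, bars give the SE) for the 12 genes of the pathway and leaf lists that had a single-gene probe, with filled points for an adjusted p under 0.05 and a star for the 5 genes described here. AT1G76450 and FZL are lower, PAC is higher, and the remaining 9 did not pass.

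Likeness of pattern was measured by Spearman's rho over the 12 readings between percentiles within each reading, which share the genotype difference, and is given as a description. The genes most like AT1G76450 were AT4G39690 (rho 0.92, and 0.54 within WT and 0.83 within toc90) and AT3G32930 (0.92, 0.60 and 0.77). Neither dropped as far, AT4G39690 going from 4.18 ± 0.651 to 2.78 ± 0.807 and AT3G32930 from 0.833 ± 0.106 to 0.192 ± 0.158 (deposited values ± SD, n = 6 each). The genes most like PAC were DRT101 (0.92, 0.60 and 0.77) and AT2G35450 (0.92, 0.83 and 0.66). For AT1G22700 they were AT1G33250 (0.93, 0.94 and 0.83) and AT2G28660 (0.92, 0.94 and 0.37).

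PIFI was most like AT1G76240 (0.98, 0.90 and 1) and AT4G22830 (0.91, 0.75 and 0.50). NdhS was most like AT1G50510 (0.93, 0.70 and 0.94) and AT2G33180 (0.87, 0.64 and 0.77). The percentiles of NdhS ran only from 99.0 to 99.3, so its rho orders very small shifts. AT1G76240 and AT2G33180 were dim, with mean deposited values of 0.0445 and 0.0591 in WT and 0.0289 and 0.0341 in toc90. Among the 5 genes themselves, the highest rho over the 12 readings was 0.77 for AT1G22700 and PIFI. It was 0.68 for PIFI and PAC and 0.52 for AT1G22700 and PAC. Within the 6 WT readings, rho was 0.70, 0.12 and 0.26 for these pairs. Within the 6 toc90 readings, rho was 0.54, -0.31 and -0.89 for these pairs. The 2 pairs with PAC were thus above 0 over 12 readings and below 0 inside toc90. Over the 12 readings AT1G76450 had a rho of -0.70 with PIFI, -0.65 with PAC, -0.57 with AT1G22700 and 0.24 with NdhS. The rho of NdhS was -0.39 with AT1G22700, -0.09 with PIFI and 0.07 with PAC.

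In the TAIR10.1 gene table the 5 genes lie on chromosome 1 (AT1G76450 and AT1G22700), 2 (PAC), 3 (PIFI) and 4 (NdhS). AT1G76450 overlaps 1 other gene there, AT1G76460, while AT1G22700 and NdhS overlap 2 each, in both cases 1 protein-coding gene (AT1G22690 and AT4G23885) and 1 long non-coding RNA. PIFI and PAC overlap none. The overlapping genes had 0 annotated probes, and the sources used here do not say whether the labelling kept strand, so signal from the genes that overlap AT1G76450, AT1G22700 and NdhS cannot be told apart from their own.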

How the data were processed

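The intensity values deposited by the authors held 12 columns, 6 WT and 6 toc90, grouped by sample title. They ran from 0 to 100. How they were scanned, background-corrected and scaled, and on which gene build, is not given in the sources used here. The 5 members, the gene lists and the tests were chosen with earlier results of these data known.

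Probes were named through the platform annotation and the TAIR10.1 gene table. Of 3439 probes, 692 had 1 gene (690 matched the table), 870 had several and 1877 were unnamed here. Zeros were treated as missing, and log2 values were quantile normalised. The 752 probes with fewer than 3 values in a group were not tested. limma 3.58.1 (lmFit, eBayes, two-sided, R 4.3.3) was fitted to the other 2687 probes, with Benjamini-Hochberg adjustment over all of them. The fit was also run on simulated data with independent readings, which could not test p-values under dependence between readings.

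The genes named were the 5 members, the single-gene probes of the gene lists, and for each member the 2 most alike single-gene probes. Alternatives covered scaling, zeros, dim probes, dependence between readings, variance, place of the probe number and each reading left out. Ranks were computed with pandas 2.3.3 and figures drawn with matplotlib 3.10.9 in Python 3.11.15.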

Additional observations from a re-analysis of the deposited data

Results flagged for a closer look

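For the 5 genes, 20 sets of 5 or 6 readings (each gene and genotype, deposited and normalised log2) were looked at for a reading far from the others, and 2 had one, where chance gives about 1 in 20. WT reading 5 of PAC had a deposited value of 0.228, while the other WT readings ran from 0.328 to 0.388, a gap only just past the critical value of Dixon's test. On the normalised scale it did not pass, the gap being 0.477 of the range. Reading 2 of toc90 for AT1G22700 had a normalised log2 value of -1.38, while the other toc90 readings ran from -0.69 to -0.46. In the deposited values its gap was 0.400 of the range. The cause of either was not tested.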

How the results depend on the processing

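Percentile ranks as values were added after the data were seen. AT1G76450 lost its call where zeros took the lowest positive value (-7.30). PAC, at 0.76, was not called with the number as a replicate block (where the limma adjusted p lay just above the threshold), neighbouring numbers averaged or as a random block. AT1G22700 was called with median scaling (1.07), cyclic loess (0.64), an offset (0.71), probes without zeros only (0.74) and percentile ranks (7.46 points). PIFI was called with median scaling (0.85), an offset (0.72), probes without zeros (0.79), quantile within the place of 96-ID blocks (0.97) and percentile ranks (11.7 points). NdhS turned to 0.68 with median scaling, and at -0.39 was called with trend and robust variance (limma adjusted p = 0.0462).

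Of the 5 genes, 1 was called higher and 1 lower. Higher were 4 with median scaling, 3 with an offset, probes without zeros or percentile ranks, 2 with cyclic loess or quantile within place, and 0 with the replicate block, averages or random block. Lower were 2 with trend and robust variance and 0 with cyclic loess, probes without zeros or zeros given the lowest positive value. The first 2 of these left AT1G76450 untested.

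Of all probes, 186 were higher and 457 lower. Higher were 431 with median scaling, 85 as deposited, 80 where zeros took the lowest positive value, 298 with an offset and 443 with percentile ranks. Lower were 896 as deposited, 173 with cyclic loess, 182 on probes without zeros and 299 where zeros took the lowest positive value. The replicate block gave 118 and 300, averages 31 and 75, and the random block 68 and 209. Across groups, readings of the same number had correlations of 0.08 to 0.25, 12 of 12 best with their own number, a hint from the data and not from the design. Neighbouring numbers had correlations of 0.43, 0.50 and 0.52 within WT but of 0.13, -0.08 and 0.35 within toc90.

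With each reading left out in turn, the differences ran from -4.67 to -4.26 for AT1G76450, 0.43 to 0.66 for AT1G22700, 0.51 to 0.71 for PIFI, -0.47 to -0.31 for NdhS and 0.65 to 0.86 for PAC. Members called numbered 0 to 2 higher and 1 lower, and all probes 141 to 177 higher and 332 to 450 lower. The causes were not tested. No other probe listed any of the 5 genes, so the planned check on further probes could not be run. Low values and a reading at 0, as for AT1G76450 in toc90, limit how well the size of a fold is known.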
